A study of Mus musculus with 22 samples.

Results

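The genes described here are 44 genes of DNA replication and S phase, measured in mouse lung by RNA sequencing. They were chosen by symbol, as members of a list that spans 7 roles at the replication fork and around it, and all 44 had a row among the 24405 genes of the count tables. All 44 also passed the filter on low counts in each of the 7 comparisons made here.

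Cells copy their genome once per division, in S phase. Origins are first licensed by loading the MCM helicase, which is later activated and followed by polymerases, a sliding clamp and the enzymes that join the lagging strand, while the supply of deoxynucleotides and the assembly of new chromatin keep pace. Many of these genes are transcribed late in G1 under E2F transcription factors, and in a mostly resting tissue such as adult lung their mRNAs are commonly read as a mark of cycling cells.

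Lung RNA was taken from the right caudal lobes of C57BL/6 mice, in a study of airway allergy. The 4 groups were OVA mice given 3 µg of goat farm particulate matter (PM, 5 libraries), saline mice given 3 µg of PM (5 libraries), OVA mice without PM (6 libraries) and saline mice without PM (6 libraries). OVA is ovalbumin, an egg protein widely used as an allergen. The labels call the arms OVA and saline by sensitization, while the protocol text can be read as a saline challenge of OVA-sensitized mice, and neither age nor sex is given in the sources used here. The strain is described as wild type, and no transgene or deletion is named for any group. The labels do not say that each library came from its own animal, and p-values therefore measure the spread between these libraries, which may be technical.

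Library totals lay between 0.302 and 28.01 M counts (M stands for 1e6), with 3 libraries under 2 M. Those were replicate 4 (0.302 M) and replicate 5 (1.13 M) of the OVA mice with PM and replicate 4 of the OVA mice without PM (1.84 M). In the shallowest library 1 count was worth 3.35 CPM (counts per M counts), and 4 members, Prim1, Chaf1a, Exo1 and Ung, had 0 counts. A count of 0 there allows a level of up to 3 counts, and this covers counting error only. The same library held 1 to 3 counts of Cdc6, Cdt1, Mcm10, Pole, Tk1, E2f8, Ccne1 and Clspn. Where these are said below not to overlap with PM, the place of that library rests on these few counts. In the labels the sample numbers of libraries with PM form their own series, so that PM and a difference in preparation or run cannot be told apart, whereas OVA and saline are compared within each series.

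The promoters of the members are shown because many replication genes are known E2F targets. RefSeq promoters (GRCm38.p6) were found for 35 of the 44 members. A window of 250 bases before to 50 bases after the start was searched on both strands for the E2F 8-mers TTTCCCGC, TTTCGCGC, TTTGCCGC and TTTGGCGC, where a match on either strand may overlap another. At least 1 of them stood in 10 of 35 member promoters (28.6%), against 486 of 17064 promoters in all (2.85%). The CCAAT box, searched as CCAAT, stood in 22 of 35 member promoters (62.9%), against 38.8% of all promoters. The cell cycle homology region TTTGAA stood in 5 of 35 (14.3%), against 15.7% of all. E2F 8-mers stood in Cdc6, Cdt1, Mcm3, Mcm5, Mcm6, Mcm7, Pola1, Rfc3, E2f2 and Clspn. The 250 bases before the start follow, 5′ to 3′, for Tk1 (chr11:117826015-117826264, minus strand), Uhrf1 (chr17:56303087-56303336, plus strand), Rrm2 (chr12:24708004-24708253, plus strand) and Cdt1 (chr8:122567765-122568014, plus strand), the members with the smallest p for OVA without PM. Mcm5 (chr8:75109259-75109508, plus strand) and Mcm6 (chr1:128359706-128359955, minus strand) were added after their matches were seen, as helicase genes with 2 and 3 E2F matches. Capitals mark E2F 8-mers and CCAAT boxes on either strand, and the first 2 E2F matches of Mcm6 and both of Mcm5 overlap.
Tk1: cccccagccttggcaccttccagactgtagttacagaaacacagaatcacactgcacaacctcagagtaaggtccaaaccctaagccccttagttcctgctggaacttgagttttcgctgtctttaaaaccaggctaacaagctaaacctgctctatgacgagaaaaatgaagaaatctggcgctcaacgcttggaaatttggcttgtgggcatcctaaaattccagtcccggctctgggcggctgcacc
Uhrf1: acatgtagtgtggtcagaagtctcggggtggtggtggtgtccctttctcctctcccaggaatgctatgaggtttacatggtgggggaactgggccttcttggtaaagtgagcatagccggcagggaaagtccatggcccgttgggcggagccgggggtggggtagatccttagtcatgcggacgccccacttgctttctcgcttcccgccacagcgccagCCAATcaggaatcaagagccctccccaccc
Rrm2: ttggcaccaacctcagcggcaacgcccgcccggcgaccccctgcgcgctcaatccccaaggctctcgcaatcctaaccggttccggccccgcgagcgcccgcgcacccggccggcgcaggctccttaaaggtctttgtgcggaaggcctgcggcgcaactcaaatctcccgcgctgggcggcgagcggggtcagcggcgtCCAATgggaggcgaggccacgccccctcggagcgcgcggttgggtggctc
Cdt1: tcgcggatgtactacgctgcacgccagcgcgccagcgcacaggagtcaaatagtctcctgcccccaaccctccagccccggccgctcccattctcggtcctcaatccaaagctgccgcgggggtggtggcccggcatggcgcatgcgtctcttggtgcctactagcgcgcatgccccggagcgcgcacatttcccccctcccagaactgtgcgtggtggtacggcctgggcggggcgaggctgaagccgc
Mcm5: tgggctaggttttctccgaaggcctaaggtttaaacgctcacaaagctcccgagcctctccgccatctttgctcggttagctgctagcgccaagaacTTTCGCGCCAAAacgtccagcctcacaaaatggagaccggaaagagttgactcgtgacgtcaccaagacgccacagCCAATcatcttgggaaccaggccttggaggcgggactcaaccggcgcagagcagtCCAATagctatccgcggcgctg
Mcm6: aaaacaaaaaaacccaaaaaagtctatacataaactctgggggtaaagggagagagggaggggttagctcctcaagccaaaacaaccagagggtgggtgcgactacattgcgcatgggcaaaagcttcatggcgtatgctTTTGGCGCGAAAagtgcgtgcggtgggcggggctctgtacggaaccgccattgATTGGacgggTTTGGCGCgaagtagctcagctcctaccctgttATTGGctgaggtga
In these 250 bases Uhrf1 and Rrm2 had 1 CCAAT box each, Mcm5 and Mcm6 had 2 each, and Tk1 and Cdt1 had capitals nowhere. The E2F 8-mer of Cdt1 lay after its start and is not printed. Matches describe letters in a window and not bound sites. The median log2 fold change of OVA over saline without PM was 1.08 over the 10 members with an E2F 8-mer and 0.93 over the 25 without one.

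In each of the 7 roles, some or all members were higher in OVA lungs than in saline lungs. Without PM, 40 of the 44 members were higher in OVA lungs and 0 were lower (edgeR quasi-likelihood test, Benjamini-Hochberg adjusted p under 0.05), against 14.4% and 9.27% of all 14632 genes tested. With PM, 33 members were higher and 0 lower, against 13.2% and 9.57% of 14250 genes. The median log2 fold change of the members was 0.98 without PM, where that of all genes was -0.02, and 0.70 with PM, where that of all genes was -0.01. The levels of all 6 OVA libraries exceeded those of all 6 saline libraries without PM for 28 members, against 6.9% of all genes. With PM this held for 15 members, against 6.67% of all genes, and without the libraries under 2 M counts for 25 members, against 15% of all genes. In bulk tissue a larger share of cycling cells and more RNA per cell cannot be told apart.

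**Figure D1:**
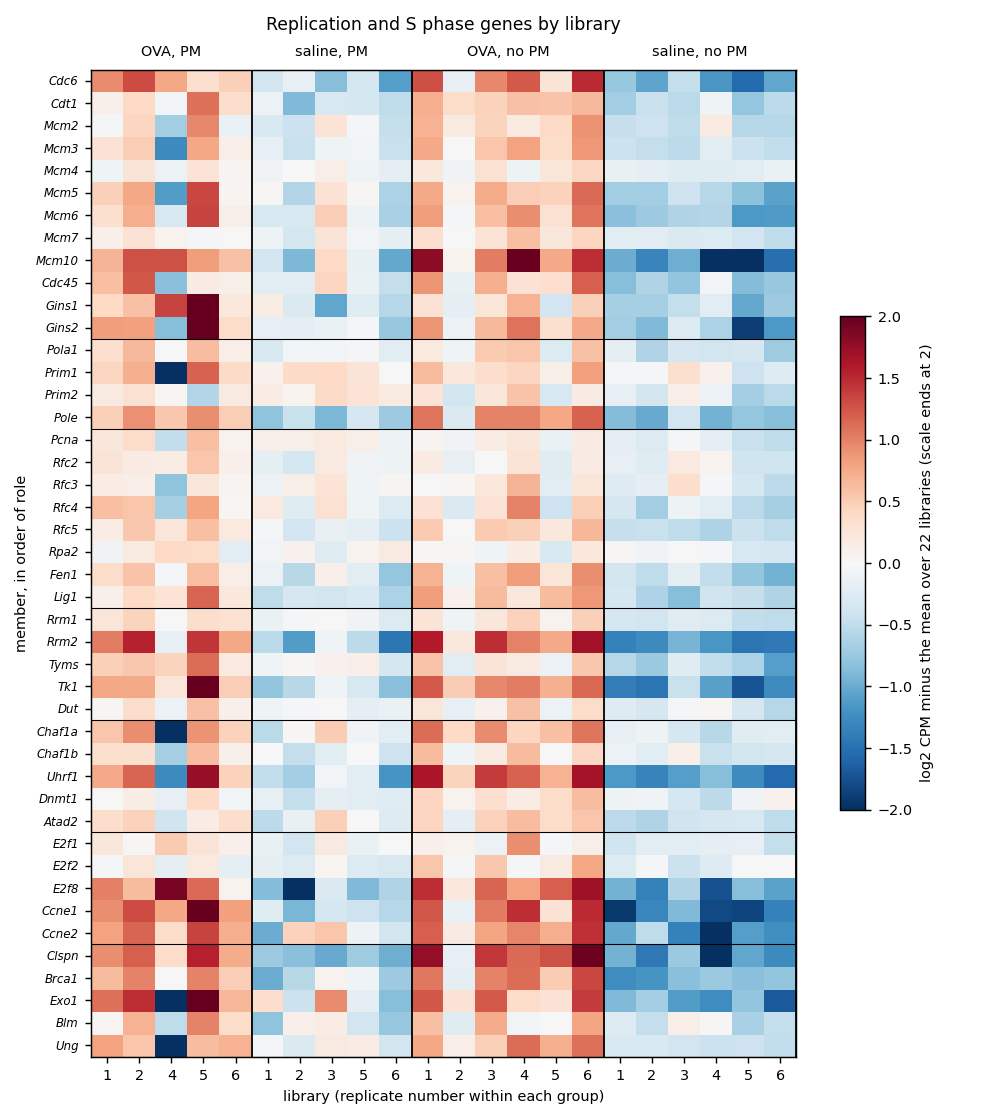
Level of each of the 44 members (down) in each of the 22 libraries (across), as log2 CPM minus the gene's mean over the libraries. Red is above and blue below that mean, the scale ends at 2, vertical lines part the groups and horizontal lines the roles. Members are mostly red in both OVA groups and mostly blue in saline lungs without PM, with saline lungs with PM between them.

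Origin licensing and helicase genes were mostly higher in OVA lungs. All 12 members of this role were higher in OVA lungs without PM, with a median log2 fold change of 1.27, and 9 of 12 were higher with PM, with a median of 0.76, where Mcm2, Mcm4 and Mcm7 were not past the threshold. Cdc6 and Cdt1 load the MCM helicase onto origins. Cdt1 stood at 11.2, 13.7, 10.1, 22.5 and 13.3 CPM in the OVA lungs with PM, against 9.55, 5.57, 8.31, 8.12 and 7.29 CPM in the saline lungs with PM. Cdt1 without PM lay between 13.5 and 17.3 CPM (median 15.6) in OVA lungs, against 5.99 and 9.8 CPM (median 7.14) in saline lungs. Neither pair of groups overlapped. Cdt1 differed by 1.14 ± 0.12 without PM (edgeR adjusted p = 1.31e-05) and by 0.81 ± 0.17 with PM (edgeR adjusted p = 0.00233), as log2 fold changes of OVA over saline ± SE.
Cdc6 stood at 7.62, 9.76, 6.704, 4.9 and 5.43 CPM in the OVA lungs with PM, against 2.96, 3.42, 2.08, 3.003 and 1.72 CPM in the saline lungs with PM. Cdc6 without PM lay between 3.43 and 11.2 CPM (median 8.49) in OVA lungs, against 1.21 and 2.74 CPM (median 1.78) in saline lungs. Cdc6 differed by 2.06 ± 0.30 without PM (edgeR adjusted p = 0.000213) and by 1.43 ± 0.23 with PM (edgeR adjusted p = 0.000218), as log2 fold changes of OVA over saline ± SE. These groups did not overlap either, and the values of Cdc6 were larger than those of Cdt1 in both settings, a difference that was not tested.

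The 6 subunits of the MCM2-7 ring had unequal log2 fold changes, and the differences between subunits were not tested. Mcm5 and Mcm6 differed most, and Mcm4 and Mcm7, the most abundant of the ring per kilobase in saline lungs without PM, least. Mcm5 stood at 41.03, 50, 13.4, 74.5 and 30.5 CPM in the OVA lungs with PM, against 29.8, 19.5, 35.9, 29.7 and 18.9 CPM in the saline lungs with PM. Mcm5 without PM lay between 30.9 and 64.3 CPM (median 45.1) in OVA lungs, against 13.8 and 21.9 CPM (median 17.98) in saline lungs. OVA and saline lungs did not overlap without PM, while with PM the shallowest OVA library lay below all saline libraries. Mcm5 differed by 1.40 ± 0.16 without PM (edgeR adjusted p = 2.76e-05) and by 0.72 ± 0.22 with PM (edgeR adjusted p = 0.0236), as log2 fold changes of OVA over saline ± SE. For Mcm6 the log2 fold changes were 1.53 ± 0.18 and 0.70 ± 0.21, against 0.41 ± 0.09 and 0.14 ± 0.10 for Mcm4, without and with PM in that order (edgeR adjusted p = 3.38e-05, 0.0219, 0.00327 and 0.339). The ratio of Mcm6 to Mcm4 counts within a library, chosen after its values were seen, had a median of 1.07 in OVA lungs with PM and 0.673 in saline lungs with PM. Without PM that median was 1.12 in OVA lungs and 0.524 in saline lungs.
Mcm10, which helps to activate the loaded helicase, was the member with the largest OVA effect without PM. Mcm10 stood at 4.37, 6.67, 6.704, 4.9 and 4.105 CPM in the OVA lungs with PM, against 2.02, 1.37, 3.56, 2.395 and 1.23 CPM in the saline lungs with PM. Mcm10 without PM lay between 2.83 and 11.01 CPM (median 6.66) in OVA lungs, against 0.327 and 1.28 CPM (median 0.903) in saline lungs. No OVA library overlapped a saline library in either setting. Mcm10 differed by 2.93 ± 0.37 without PM (edgeR adjusted p = 5.92e-05) and by 1.34 ± 0.27 with PM (edgeR adjusted p = 0.00128), as log2 fold changes of OVA over saline ± SE. Cdc45 and the GINS subunits Gins1 and Gins2, partners of MCM2-7 in the active helicase, differed by 1.40, 0.92 and 1.59 without PM and by 0.82, 0.95 and 1.07 with PM on the log2 scale, each past the threshold (edgeR).

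The polymerases and primase held fewer calls, 3 of 4 without PM and 2 of 4 with PM. Pole, the catalytic subunit of the leading-strand polymerase, differed most. Pole stood at 6.41, 8.77, 6.704, 8.82 and 6.505 CPM in the OVA lungs with PM, against 2.55, 3.32, 2.38, 3.58 and 2.705 CPM in the saline lungs with PM. Pole without PM lay between 3.73 and 10.5 CPM (median 9.25) in OVA lungs, against 2.195 and 3.47 CPM (median 2.45) in saline lungs. Here OVA libraries lay above saline libraries in both settings without overlap. Pole differed by 1.72 ± 0.23 without PM (edgeR adjusted p = 0.000113) and by 1.25 ± 0.18 with PM (edgeR adjusted p = 9.69e-05), as log2 fold changes of OVA over saline ± SE. Pola1 differed by 0.73 ± 0.16 without PM (edgeR adjusted p = 0.00492) and by 0.52 ± 0.14 with PM (edgeR adjusted p = 0.0108), as log2 fold changes of OVA over saline ± SE. Pola1 encodes the catalytic subunit of the polymerase that extends primers, and its call with PM was lost without replicate 2 of the OVA mice with PM (a value of 0.40, edgeR adjusted p = 0.0658). The primase subunits differed little, with log2 fold changes of 0.55 ± 0.15 and 0.32 ± 0.18 for Prim1 and 0.40 ± 0.17 and -0.05 ± 0.12 for Prim2, without and with PM in that order. Of these 4 values only that of Prim1 without PM passed the threshold (edgeR adjusted p = 0.0162).

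Among the clamp, clamp loader and lagging-strand genes, 5 of 8 were higher in OVA lungs in each setting, with medians of 0.52 without PM and 0.41 with PM. The enzymes that finish the lagging strand, the flap nuclease gene Fen1 and the ligase gene Lig1, differed most. Lig1 stood at 20.97, 25.8, 23.5, 44.1 and 22.5 CPM in the OVA lungs with PM, against 13.7, 15.4, 15.1, 15.7 and 12.5 CPM in the saline lungs with PM. Lig1 without PM lay between 20.7 and 35.8 CPM (median 30.2) in OVA lungs, against 10.8 and 15.2 CPM (median 13.4) in saline lungs. Groups were apart in both settings, and replicate 5 of the OVA mice with PM stood above the other 4 of its group. Lig1 differed by 1.16 ± 0.14 without PM (edgeR adjusted p = 3.85e-05) and by 0.80 ± 0.16 with PM (edgeR adjusted p = 0.00122), as log2 fold changes of OVA over saline ± SE. Fen1 differed by 1.14 ± 0.18 without PM (edgeR adjusted p = 0.000365) and by 0.70 ± 0.16 with PM (edgeR adjusted p = 0.00319), as log2 fold changes of OVA over saline ± SE.
Rfc5 differed by 0.93 ± 0.11 without PM (edgeR adjusted p = 4.51e-05) and by 0.57 ± 0.13 with PM (edgeR adjusted p = 0.00423), as log2 fold changes of OVA over saline ± SE. Rfc5 is a subunit of the clamp loader, and its groups did not overlap in either setting. The other loader subunits differed less, with Rfc2 at 0.21 and 0.34, Rfc3 at 0.33 and 0.07 and Rfc4 at 0.69 and 0.48 without and with PM. Pcna, the sliding clamp and the most abundant member (49.1 CPM per kilobase in saline lungs without PM), averaged 103 ± 26.8 CPM in OVA lungs with PM and 95.4 ± 7.04 CPM in saline lungs with PM (SD, n = 5 each). Without PM, Pcna averaged 93.9 ± 9.01 CPM in OVA lungs and 74.6 ± 9.48 CPM in saline lungs (SD, n = 6 each). Pcna differed by 0.35 ± 0.10 without PM (edgeR adjusted p = 0.0166) and by 0.17 ± 0.11 with PM (edgeR adjusted p = 0.32), as log2 fold changes of OVA over saline ± SE. Rpa2, a subunit of the single-strand binding protein RPA, gave the smallest value without PM. Rpa2 differed by 0.16 ± 0.10 without PM (edgeR adjusted p = 0.3) and by -0.01 ± 0.12 with PM (edgeR adjusted p = 0.986), as log2 fold changes of OVA over saline ± SE.

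**Figure D2:**
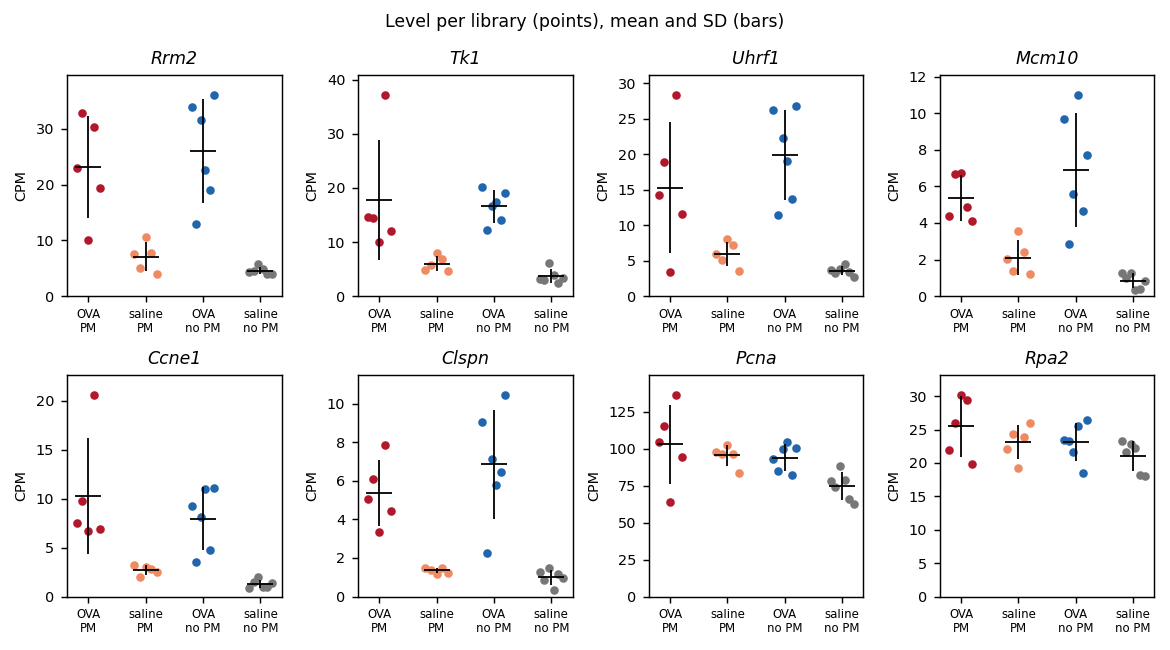
Level in CPM (vertical axes, from 0) of 8 members in each library, by group, with points for libraries and bars for the mean and SD of each group (n = 5 with PM, n = 6 without). Without PM, Rrm2, Tk1, Uhrf1, Mcm10, Ccne1 and Clspn do not overlap between OVA and saline lungs. With PM, Rrm2 and Uhrf1 overlap through the shallowest OVA library, while Tk1, Mcm10, Ccne1 and Clspn do not overlap. Pcna and Rpa2 overlap in both settings.

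All 5 nucleotide supply genes were higher in OVA lungs without PM, and all but Dut were with PM. Rrm2, the small subunit of ribonucleotide reductase whose level is known to follow S phase, differed most. Rrm2 stood at 23.1, 32.9, 10.1, 30.4 and 19.4 CPM in the OVA lungs with PM, against 7.66, 5.08, 10.7, 7.79 and 4.02 CPM in the saline lungs with PM. Rrm2 without PM lay between 12.96 and 36.1 CPM (median 27.1) in OVA lungs, against 3.98 and 5.84 CPM (median 4.43) in saline lungs. OVA and saline libraries did not overlap without PM, and with PM the shallowest OVA library (10.1 CPM) lay just below the highest saline library (10.7 CPM). Rrm2 differed by 2.58 ± 0.24 without PM (edgeR adjusted p = 6.84e-06) and by 1.90 ± 0.22 with PM (edgeR adjusted p = 1.42e-05), as log2 fold changes of OVA over saline ± SE. The large subunit Rrm1 differed by 0.64 ± 0.10 and 0.43 ± 0.08 on the log2 scale without and with PM (edgeR adjusted p = 0.000331 and 0.00123). The ratio of Rrm2 to Rrm1 counts, chosen after its values were seen, had medians of 0.388 in OVA lungs with PM and 0.162 in saline lungs with PM. Without PM these were 0.437 in OVA lungs and 0.116 in saline lungs.
Tk1, the cytosolic thymidine kinase of the salvage pathway, had the smallest p of the members without PM, with Uhrf1. Tk1 stood at 14.6, 14.5, 10.1, 37.2 and 12.1 CPM in the OVA lungs with PM, against 4.84, 5.76, 8.02, 6.79 and 4.67 CPM in the saline lungs with PM. Tk1 without PM lay between 12.2 and 20.3 CPM (median 17.1) in OVA lungs, against 2.47 and 6.201 CPM (median 3.32) in saline lungs. Groups did not overlap in either setting. Tk1 differed by 2.27 ± 0.20 without PM (edgeR adjusted p = 4.57e-06) and by 1.40 ± 0.23 with PM (edgeR adjusted p = 0.000337), as log2 fold changes of OVA over saline ± SE. Tyms, which makes thymidylate, differed by 0.92 ± 0.17 and 0.53 ± 0.15, and Dut, which removes dUTP, by 0.45 ± 0.13 and 0.30 ± 0.11, without and with PM (edgeR adjusted p = 0.00137, 0.0157, 0.0261 and 0.0603).

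The 5 genes of chromatin assembly and DNA methylation were all higher in OVA lungs in both settings. Uhrf1, which binds hemimethylated DNA behind the fork and recruits the methyltransferase Dnmt1, differed most. Uhrf1 stood at 14.3, 18.9, 3.35, 28.4 and 11.6 CPM in the OVA lungs with PM, against 5.92, 5.18, 8.02, 7.19 and 3.61 CPM in the saline lungs with PM. Uhrf1 without PM lay between 11.4 and 26.8 CPM (median 20.7) in OVA lungs, against 2.76 and 4.57 CPM (median 3.56) in saline lungs. No overlap was seen without PM, whereas with PM the shallowest OVA library lay below all saline libraries. Uhrf1 differed by 2.57 ± 0.22 without PM (edgeR adjusted p = 4.57e-06) and by 1.42 ± 0.24 with PM (edgeR adjusted p = 0.000323), as log2 fold changes of OVA over saline ± SE. Dnmt1 itself differed by 0.51 ± 0.11 and 0.33 ± 0.10 without and with PM (edgeR adjusted p = 0.00303 and 0.0204). Chaf1a differed by 1.09 ± 0.14 without PM (edgeR adjusted p = 8.01e-05) and by 0.73 ± 0.20 with PM (edgeR adjusted p = 0.0145), as log2 fold changes of OVA over saline ± SE. Chaf1a is the large subunit of the histone chaperone CAF-1, and its call with PM was lost without replicate 2 of the OVA mice with PM (a value of 0.59, edgeR adjusted p = 0.074). Its partner Chaf1b differed by 0.54 and 0.47, and the chromatin ATPase gene Atad2 by 0.85 and 0.44, without and with PM on the log2 scale.

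All 5 G1/S regulators were higher in OVA lungs without PM, and 3 of 5 with PM. Cyclin E genes and the repressor E2f8 were higher by more than 2 on the log2 scale without PM, while the activators E2f1 and E2f2 stood at 0.45 and 0.55. Ccne1 stood at 7.47, 9.76, 6.704, 20.6 and 6.88 CPM in the OVA lungs with PM, against 3.23, 1.95, 2.97, 2.86 and 2.54 CPM in the saline lungs with PM. Ccne1 without PM lay between 3.48 and 11.1 CPM (median 8.696) in OVA lungs, against 0.888 and 2.01 CPM (median 1.19) in saline lungs. Groups were apart in both settings, and replicate 5 of the OVA mice with PM stood above the other 4 of its group. With PM the shallowest OVA library held 2 counts of Ccne1, where 1 count (3.35 CPM) would already lie above all saline libraries. Ccne1 differed by 2.62 ± 0.32 without PM (edgeR adjusted p = 4.27e-05) and by 1.73 ± 0.25 with PM (edgeR adjusted p = 7.96e-05), as log2 fold changes of OVA over saline ± SE. Ccne2 differed by 2.16 ± 0.30 without PM (edgeR adjusted p = 0.000135) and by 1.01 ± 0.26 with PM (edgeR adjusted p = 0.00877), as log2 fold changes of OVA over saline ± SE.
E2f8 stood at 5.36, 4.08, 10.1, 5.88 and 2.72 CPM in the OVA lungs with PM, against 1.34, 0.489, 2.08, 1.32 and 1.64 CPM in the saline lungs with PM. E2f8 without PM lay between 3.004 and 8.68 CPM (median 6.05) in OVA lungs, against 0.653 and 1.64 CPM (median 1.198) in saline lungs. These levels did not overlap between OVA and saline lungs. With PM the shallowest OVA library held 3 counts of E2f8, where 1 count (3.35 CPM) would already lie above all saline libraries. E2f8 differed by 2.38 ± 0.26 without PM (edgeR adjusted p = 2.27e-05) and by 1.71 ± 0.31 with PM (edgeR adjusted p = 0.000726), as log2 fold changes of OVA over saline ± SE. For E2f1 the log2 fold changes were 0.45 ± 0.14 and 0.26 ± 0.13, and for E2f2 0.55 ± 0.14 and 0.25 ± 0.12, without and with PM (edgeR adjusted p = 0.0366, 0.155, 0.00873 and 0.143).

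The 5 checkpoint and repair genes were higher in OVA lungs in both settings. Clspn encodes claspin, an adaptor of the replication checkpoint kinase. Clspn stood at 5.05, 6.08, 3.35, 7.84 and 4.42 CPM in the OVA lungs with PM, against 1.48, 1.37, 1.19, 1.502 and 1.23 CPM in the saline lungs with PM. Clspn without PM lay between 2.27 and 10.4 CPM (median 6.79) in OVA lungs, against 0.327 and 1.46 CPM (median 1.06) in saline lungs. Groups did not overlap in either setting. With PM the shallowest OVA library held 1 count of Clspn, and any count above 0 there would lie above all saline libraries. Clspn differed by 2.74 ± 0.35 without PM (edgeR adjusted p = 6.66e-05) and by 1.92 ± 0.21 with PM (edgeR adjusted p = 8.85e-06), as log2 fold changes of OVA over saline ± SE. Brca1 differed by 1.92 ± 0.25 without PM (edgeR adjusted p = 8.79e-05) and by 1.18 ± 0.23 with PM (edgeR adjusted p = 0.00104), as log2 fold changes of OVA over saline ± SE. Brca1 acts in recombination repair. The exonuclease gene Exo1, the least abundant member (0.101 CPM per kilobase in saline lungs without PM), differed by 2.17 and 1.33, the helicase gene Blm by 0.78 and 0.79, and the uracil-DNA glycosylase gene Ung by 1.16 and 0.75, without and with PM on the log2 scale.

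**Figure D3:**
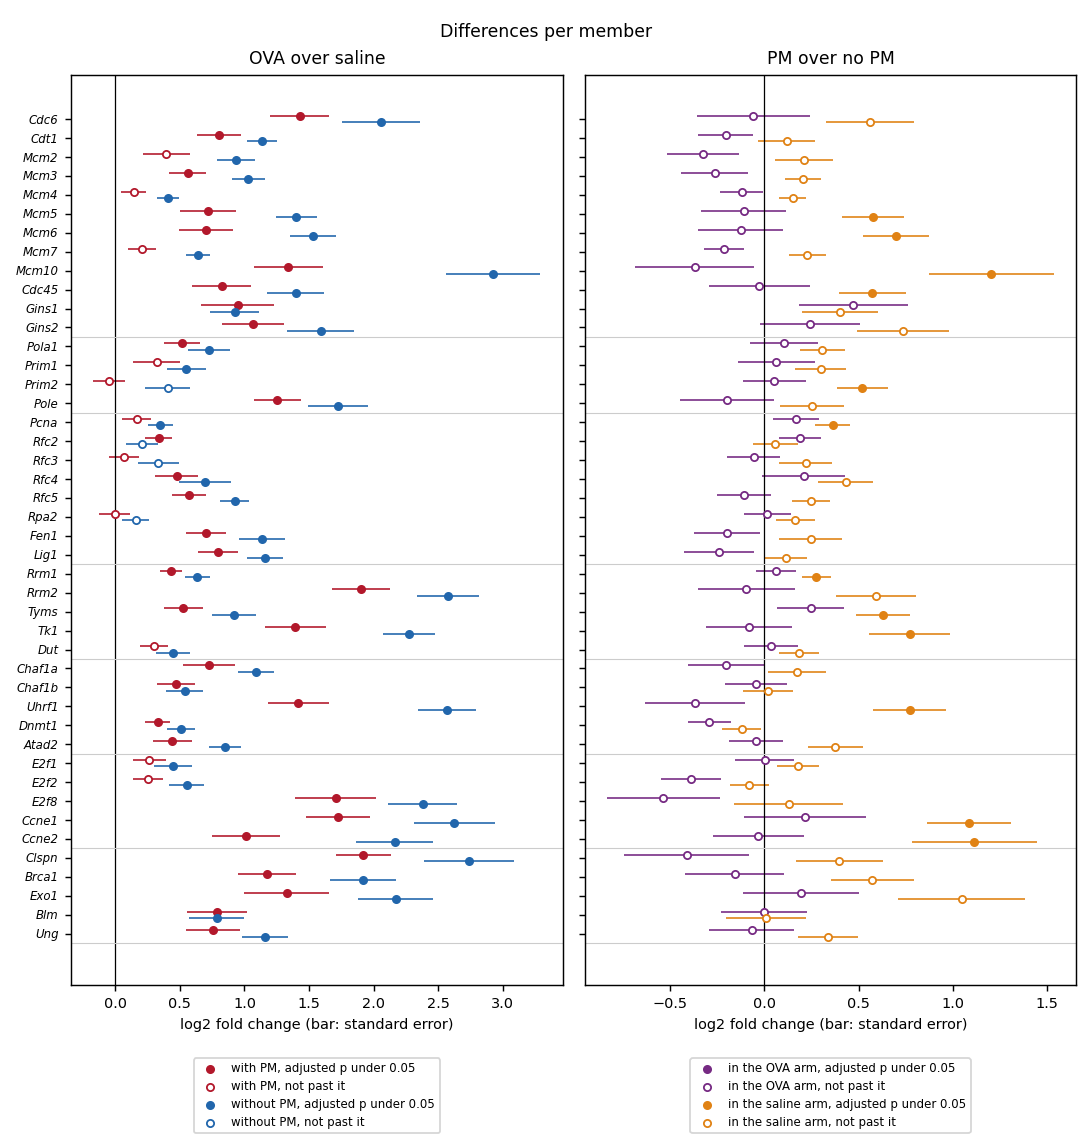
Log2 fold change of each member (down, grouped by role) with its standard error. On the left are the OVA effects with and without PM, and on the right the PM effects in the OVA and the saline arm, filled where the edgeR adjusted p was under 0.05. OVA effects reach 2.93 and lie above 0 with 2 exceptions at -0.05 and -0.01 with PM, while PM effects lie between -0.54 and 1.20.

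Across members the OVA effect was larger where the level in saline lungs was lower. The Spearman correlation between the level per kilobase of transcript in saline lungs without PM and the log2 fold change of OVA over saline with PM was -0.83 over the 44 members. The level and the fold change here come from separate libraries, while members are not independent replicates, so that the value is a description. The 15 most abundant members had a median log2 fold change of 0.33 with PM, and the 15 least abundant a median of 1.25. The OVA effects with and without PM, which share no library, had a Spearman correlation of 0.94 and a Pearson correlation of 0.94 over the members.

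**Figure D4:**
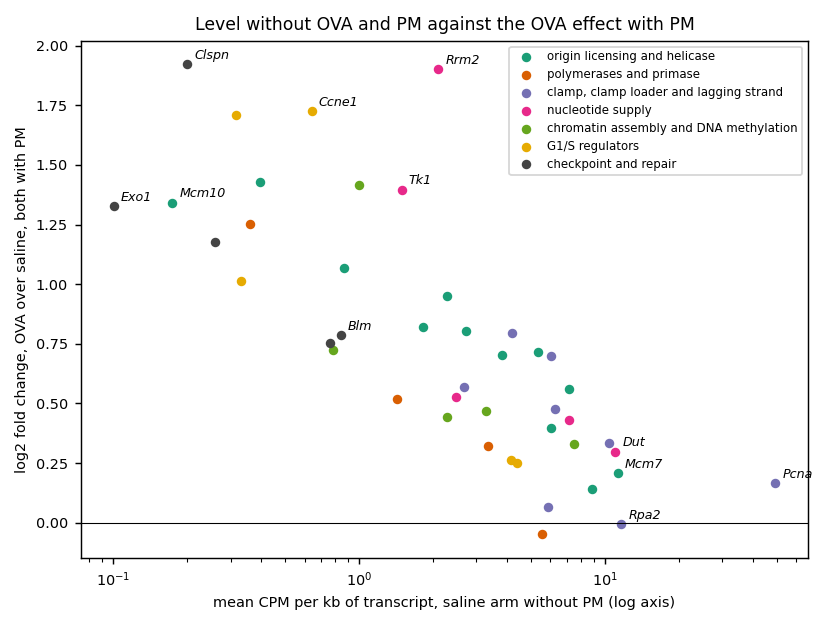
Mean level of each member in saline lungs without PM, in CPM per kilobase of transcript on a log axis, against the log2 fold change of OVA over saline with PM, coloured by role. Members fall along a descending band, with log2 fold changes between 1.92 (Clspn) and -0.05 (Prim2).

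Libraries within a group differed along the whole gene set. Replicate 2 of the OVA mice without PM was the lowest of its group for 33 of the 44 members, and replicate 6 the highest for 26. Among OVA mice with PM, replicate 5 was the highest for 28 members and replicate 4 the lowest for 31, and both are libraries under 2 M counts. The members took 0.0695% to 0.12% of counts in OVA lungs with PM and 0.0639% to 0.0853% in saline lungs with PM. Without PM their share was 0.0823% to 0.129% in OVA lungs and 0.0578% to 0.0644% in saline lungs, so that these last groups did not overlap. Without replicate 2 of the OVA mice, 41 members were higher in OVA lungs without PM, with a median log2 fold change of 1.07, against 15.9% of all genes higher in that fit. Without replicate 6 there were 35, with a median of 0.91, against 11.8% of all genes.

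Some replication genes were higher with PM in the saline arm. In saline lungs with PM, 12 of the 44 members were higher and 0 lower than in saline lungs without PM, against 5.47% and 7.37% of all 14496 genes. The median log2 fold change of the members was 0.30 and that of all genes 0.01, and 42 of 44 values were positive. The levels of 1 member, Rfc5, did not overlap between the groups, against 2.68% of all genes. The called members were the helicase genes Mcm5, Mcm6, Mcm10 and Cdc45, the primase subunit Prim2, the clamp Pcna, Rrm1, Tyms and Tk1 of nucleotide supply, Uhrf1, and both cyclin E genes.

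Ccne1, a partner of the kinase that starts S phase, was the call with the smallest adjusted p. Ccne1 differed by 1.09 ± 0.22 in the saline arm (edgeR adjusted p = 0.0142) and by 0.22 ± 0.32 in the OVA arm (edgeR adjusted p = 0.704), as log2 fold changes of PM over no PM ± SE. In the levels given above, the lowest saline lung with PM (1.95 CPM) lay just under the highest without PM (2.01 CPM), so that the groups overlapped by 1 library on each side. Ccne2 differed by 1.11 ± 0.33 in the saline arm (edgeR adjusted p = 0.0435) and by -0.03 ± 0.24 in the OVA arm (edgeR adjusted p = 0.957). Mcm10 differed by 1.20 ± 0.33 in the saline arm (edgeR adjusted p = 0.0341) and by -0.37 ± 0.31 in the OVA arm (edgeR adjusted p = 0.464).
Tk1 differed by 0.77 ± 0.21 in the saline arm (edgeR adjusted p = 0.035) and by -0.08 ± 0.23 in the OVA arm (edgeR adjusted p = 0.858). Uhrf1 differed by 0.77 ± 0.20 in the saline arm (edgeR adjusted p = 0.0261) and by -0.37 ± 0.27 in the OVA arm (edgeR adjusted p = 0.386). Within the range of the saline lungs without PM lay 3 of the 5 saline lungs with PM for Tk1, and 1 of the 5 for Uhrf1. Mcm6 differed by 0.70 ± 0.18 in the saline arm (edgeR adjusted p = 0.0258) and by -0.13 ± 0.23 in the OVA arm (edgeR adjusted p = 0.761).
Mcm5 differed by 0.58 ± 0.17 in the saline arm (edgeR adjusted p = 0.0383) and by -0.11 ± 0.23 in the OVA arm (edgeR adjusted p = 0.798). Cdc45 differed by 0.57 ± 0.18 in the saline arm (edgeR adjusted p = 0.0481) and by -0.03 ± 0.27 in the OVA arm (edgeR adjusted p = 0.969). The call of Cdc45 was lost in 4 of 9 alternative settings, with edgeR adjusted p-values between 0.0582 and 0.122. Mcm5 and Mcm6 belong to the helicase ring and Cdc45 activates it. Tyms differed by 0.63 ± 0.14 in the saline arm (edgeR adjusted p = 0.0189) and by 0.24 ± 0.18 in the OVA arm (edgeR adjusted p = 0.392). Rrm1 differed by 0.28 ± 0.08 in the saline arm (edgeR adjusted p = 0.0363) and by 0.06 ± 0.11 in the OVA arm (edgeR adjusted p = 0.761).

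Among the members called for PM in the saline arm, Pcna and Prim2 stood out. Their values for PM there were about as large as their OVA effects without PM. Rpa2, which was not called, averaged 23.1 CPM both in saline lungs with PM and in OVA lungs without PM. Pcna stood at 105, 115, 63.7, 136 and 94.2 CPM in the OVA lungs with PM, against 97.5, 96.6, 103, 96.6 and 83.7 CPM in the saline lungs with PM. Pcna without PM lay between 81.98 and 104 CPM (median 96.2) in OVA lungs, against 62.6 and 88.5 CPM (median 75.9) in saline lungs. The single saline library without PM at 88.5 CPM, replicate 3, lay among those with PM. Pcna differed by 0.36 ± 0.09 in the saline arm (edgeR adjusted p = 0.0258) and by 0.17 ± 0.12 in the OVA arm (edgeR adjusted p = 0.391). With an offset for the length and GC content of transcripts the value for Pcna in the saline arm was 0.06 (edgeR adjusted p = 0.526).
Prim2 stood at 18.4, 20.1, 16.8, 10.8 and 18.4 CPM in the OVA lungs with PM, against 18.2, 17.2, 21.4, 19.7 and 18.4 CPM in the saline lungs with PM. Prim2 without PM lay between 12.6 and 24.3 CPM (median 18.7) in OVA lungs, against 10.1 and 17.9 CPM (median 13.5) in saline lungs. Saline lungs with PM had the highest mean of the 4 groups for this gene and for no other member. Prim2 differed by 0.52 ± 0.13 in the saline arm (edgeR adjusted p = 0.0276) and by 0.05 ± 0.17 in the OVA arm (edgeR adjusted p = 0.88). The same offset gave Prim2 a value of 0.30 in the saline arm (edgeR adjusted p = 0.0886).

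The number of calls in the saline arm depended on single libraries. Among the saline mice with PM, leaving out replicate 1 gave 3 members higher (1.87% of all genes higher in the same fit), replicate 2 gave 4 (2.47%), replicate 3 gave 2 (2.51%), replicate 5 gave 1 (1.704%) and replicate 6 gave 12 (3.803%). Among the saline mice without PM, leaving out replicate 1 gave 7 (3.42%), replicate 2 gave 4 (2.14%), replicate 3 gave 19 (12.9%), replicate 4 gave 14 (8.07%), replicate 5 gave 2 (1.95%) and replicate 6 gave 2 (1.98%). That share of all genes was highest where the count of members was highest and lowest where it was lowest, and counts of 1 and 2 of 44 members lie near it. The median log2 fold change of the members stayed between 0.25 and 0.36 in these 11 fits. Ccne1 kept its call in all 11. Tyms lost it in 1, Mcm6 and Uhrf1 in 6, Mcm5, Mcm10, Pcna and Ccne2 in 7, and Cdc45, Prim2, Rrm1 and Tk1 in 8. Over the 9 alternative settings that leave out no single library, calls were lost in 2 for Ccne2 and Rrm1 and in 1 for Mcm5, Uhrf1, Pcna and Prim2, besides Cdc45.

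In the OVA arm no member passed the threshold for PM. With edgeR 0 of 44 members were higher and 0 lower, against 2.27% and 6.87% of all 14657 genes, and at an unadjusted p under 0.05 there were 0 higher and 2 lower. By edgeR 11.7% of all genes were higher and 16.7% lower at that p. DESeq2 also called 0 members, with 2 lower at an unadjusted p under 0.05. The median log2 fold change was -0.06, the range -0.54 to 0.47, and 29 of 44 values were negative. The 4 smallest p-values belonged to Dnmt1, E2f2, Mcm7 and E2f8. Dnmt1 stood at 48.6, 54.3, 43.6, 64.7 and 46.9 CPM in the OVA lungs with PM, against 43.4, 35.1, 43.1, 42.04 and 41.2 CPM in the saline lungs with PM. Dnmt1 without PM lay between 51.5 and 74.9 CPM (median 62.6) in OVA lungs, against 33.97 and 52.02 CPM (median 46.03) in saline lungs. The groups overlapped for Dnmt1, with or without PM in the OVA arm. Dnmt1 differed by -0.29 ± 0.11 (edgeR adjusted p = 0.11), E2f2 by -0.39 ± 0.16 (0.122), Mcm7 by -0.22 ± 0.11 (0.201) and E2f8 by -0.54 ± 0.30 (0.255). Dnmt1 was called lower with scaling by library totals, without the libraries under 2 M counts, and without replicate 4 of the OVA mice without PM, with log2 fold changes of -0.40, -0.36 and -0.32. In those fits 12.8%, 13.3% and 13.8% of all genes were lower, in that order.

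The PM effects in OVA and saline lungs were set against each other in a fit of all 4 groups. The difference, PM in the OVA arm minus PM in the saline arm, was past the threshold for 0 members in either direction, against 0% of all 14942 genes higher and 0.0937% lower. It was negative for 41 of 44 members, with a median of -0.40 on the log2 scale, where the median of all genes was 0.01. At an unadjusted p under 0.05, 8 members were lower (18.2%) and 0 higher, against 2.41% and 1.41% of all genes, and DESeq2 also gave 0 calls and 8 lower. The 4 smallest p-values belonged to Mcm10 (-1.56 ± 0.49), Uhrf1 (-1.12 ± 0.37), Mcm7 (-0.43 ± 0.15) and Ccne2 (-1.13 ± 0.43), with edgeR adjusted p-values of 0.714, 0.775, 0.923 and 1. The same difference compares the OVA effect with PM with that without PM.

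OVA and PM together were set against neither. Here 40 members were higher and 0 lower, against 17.3% and 17.6% of all 14589 genes, with a median log2 fold change of 0.92. The levels did not overlap for 22 members, against 7.42% of all genes, and without the libraries under 2 M counts for 36 members, against 15.6% of all genes. This comparison shares its saline libraries with the OVA effect without PM, and the values stand side by side only. It also crosses both series of sample numbers, so that a difference in preparation or run cannot be told apart from the treatments. Among the named members the log2 fold changes ± SE, with edgeR adjusted p in brackets, were Cdc6 1.99 ± 0.23 (1.09e-05), Mcm10 2.55 ± 0.28 (8.73e-06), Pola1 0.83 ± 0.15 (0.000583), Pole 1.53 ± 0.17 (9.15e-06), Rfc5 0.82 ± 0.12 (8.92e-05), Fen1 0.94 ± 0.15 (0.000212), Rrm2 2.48 ± 0.18 (2.39e-07). The others were Tk1 2.22 ± 0.28 (2.62e-05), Uhrf1 2.21 ± 0.23 (4.47e-06), Atad2 0.80 ± 0.11 (7.25e-05), Ccne1 2.85 ± 0.28 (2.72e-06), Ccne2 2.13 ± 0.28 (3.97e-05), Clspn 2.33 ± 0.23 (2.94e-06), Brca1 1.76 ± 0.19 (6.83e-06). Rfc3, Rpa2, Dnmt1 and E2f2 were not past the threshold.

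Members were lower with PM alone than with OVA alone. In saline lungs with PM 31 of 44 members were lower and 0 higher than in OVA lungs without PM, against 20.4% of all 14609 genes lower and 16.3% higher. The median log2 fold change was -0.78, and the levels did not overlap for 13 members, against 8.89% of all genes. All 5 chromatin genes, all 5 checkpoint and repair genes and 10 of 12 licensing and helicase genes were lower. Among the named members the values ± SE, with edgeR adjusted p in brackets, were Cdt1 -1.003 ± 0.13 (0.000162), Mcm3 -0.81 ± 0.14 (0.00103), Pola1 -0.40 ± 0.16 (0.0596), Pole -1.45 ± 0.25 (0.000782), Rfc5 -0.66 ± 0.13 (0.00181), Lig1 -1.03 ± 0.14 (0.000192), Rrm2 -1.98 ± 0.28 (0.000251). The others were Tk1 -1.49 ± 0.17 (6.47e-05), Uhrf1 -1.78 ± 0.25 (0.000224), Dnmt1 -0.61 ± 0.10 (0.000436), E2f8 -2.23 ± 0.32 (0.000237), Ccne1 -1.51 ± 0.30 (0.0017), Clspn -2.32 ± 0.35 (0.000323), Brca1 -1.32 ± 0.28 (0.00286). Pola1 passed the threshold with scaling by library totals, with all 4 groups in 1 fit, with the offset for GC content and length, and without replicate 2 or 5 of the OVA mice, where its value lay between -0.48 and -0.40. The clamp Pcna (0.03 ± 0.08), Rpa2 (0.02 ± 0.10) and Prim2 (0.13 ± 0.14) had values above 0 that were not past the threshold. This comparison crosses both series of sample numbers.

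By group mean, saline lungs without PM were the lowest of the 4 groups for 41 members. For 38 members the order was saline without PM, saline with PM, and then both OVA groups. OVA lungs without PM were the highest for 28 members and OVA lungs with PM for 15, and these neighbours differed past the threshold for 0 members, as given above. Saline lungs with PM were the lowest for Dnmt1, E2f2 and Blm.

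Other genes of the same pathways were counted from lists, to be read beside the 14.4% of all genes higher and 9.27% lower in OVA lungs without PM. Of 40 further fork and origin genes, 14 were higher (35%) and 0 lower in OVA lungs without PM (median log2 fold change 0.22). With PM 7 were higher (17.5%) and 0 lower, near the 13.2% of all genes higher there. Those with the smallest p without PM were Ticrr at 2.78 ± 0.34 (edgeR adjusted p = 5.33e-05), Wdhd1 at 1.13 ± 0.15 (edgeR adjusted p = 8.53e-05) and Dbf4 at 1.06 ± 0.16 (edgeR adjusted p = 0.000251), which act in origin firing or at the fork. Of 10 licensing inhibitor and damage checkpoint genes only Chek1 was called in OVA lungs without PM, at 1.69 ± 0.20 (edgeR adjusted p = 4e-05). PM in the saline arm gave 8 higher (20.5%) and 0 lower of 39 fork and origin genes, against 5.47% and 7.37% of all genes. Among them Cdc7, the kinase that fires origins, stood at 0.57 ± 0.11 (edgeR adjusted p = 0.0108).
Of 22 further nucleotide supply genes, 8 were higher and 1 lower in OVA lungs without PM. Among them Dck, a salvage kinase, stood at 1.11 ± 0.10 (edgeR adjusted p = 7.17e-06) and the folate enzyme gene Mthfd1 at -0.60 ± 0.09 (edgeR adjusted p = 0.000196). Of 15 further chromatin genes 7 were higher and 0 lower, led by the histone chaperone Asf1b at 2.01 ± 0.23 (edgeR adjusted p = 2.7e-05). Of 24 further G1/S regulators 11 were higher and 2 lower, with Ccna2, cyclin A, at 2.87 ± 0.28 (edgeR adjusted p = 8.29e-06). Of 7 CDK inhibitors 1 was higher and 2 lower, with Cdkn1c at -0.80 ± 0.12 (edgeR adjusted p = 0.000234). Of 12 p53 targets 2 were higher (16.7%) and 0 lower. The shares of p53 targets and of CDK inhibitors higher (14.3%) are near that of all genes. Of 16 homologous recombination genes 10 were higher (62.5%) and 0 lower. With PM in the saline arm, 3 of 22 nucleotide supply genes were higher and 2 lower, and 3 of 15 chromatin genes higher. Of 24 G1/S regulators 1 was higher there (4.17%), and of 16 recombination genes 1 (6.25%), near the 5.47% of all genes. Of 10 licensing inhibitor and damage checkpoint genes 1 was higher. The 7 CDK inhibitors and the 12 p53 targets each had 0 higher and 1 lower.
Mitosis genes moved furthest. All 22 were higher in OVA lungs both without PM (median log2 fold change 2.58) and with PM (2.05), where 13.2% of all genes were higher. In the saline arm 4 of 22 (18.2%) were higher with PM (median 0.41), against 5.47% of all genes. For PM in the OVA arm 0 of 22 passed the threshold (median -0.09), against 2.27% of all genes higher and 6.87% lower. Their medians in OVA lungs lay above those of the members, at 0.98 and 0.70.

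The genes outside the list whose levels followed the members most closely over the 22 libraries were Cdk1 (Spearman correlation 0.99), Asf1b (0.99), Ccna2 (0.98), Cdca3 (0.98), Mki67 (0.97), Ccnb1 (0.97), Spc25 (0.97) and C1qb (0.96). The correlation was taken between a gene's log2 CPM and the median over members of centred log2 CPM, among 14303 genes, and the libraries share the 4 groups. The first 7 are cell cycle or histone chaperone genes, and C1qb encodes a complement subunit made by macrophages.

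Markers of some cell types that could carry these mRNAs moved in the same comparisons, and those of others did not. Of all genes 14.4% were higher and 9.27% lower in OVA lungs without PM, and 13.2% and 9.57% with PM. For PM these shares were 5.47% and 7.37% in the saline arm and 2.27% and 6.87% in the OVA arm. Of 6 B cell markers 6 were higher in OVA lungs without PM and 5 with PM, with summed levels of 486 to 843 CPM in OVA lungs with PM and 265 to 358 CPM in saline lungs with PM. Without PM the sums were 369 to 648 CPM in OVA lungs and 199 to 288 CPM in saline lungs. Of 7 monocyte and interstitial macrophage markers 5 were higher in OVA lungs in each setting and 5 were higher with PM in the saline arm. Their sums were 925 to 1481 CPM in OVA lungs with PM and 426 to 497 CPM in saline lungs with PM, and without PM 826 to 1071 CPM in OVA lungs and 263 to 367 CPM in saline lungs. Plasma cell markers were higher for 4 of 6 in both OVA comparisons and with PM in the saline arm, and T cell markers for 4 of 6 without PM and 3 of 6 with PM. Endothelial markers were lower in OVA lungs for 4 of 6 without PM and 6 of 6 with PM, and lower with PM for 5 of 6 in each arm. Eosinophil markers were higher for 3 of 4 tested without PM and 4 of 4 with PM, and for 3 of 4 with PM in the saline arm. Alveolar macrophage markers were higher for 1 of 7 without PM, and with PM for 4 of 7 with 1 lower. Neutrophil markers were higher for 1 of 6 in each setting. Of 5 natural killer cell markers tested 0 were called without PM, and 0 were higher and 2 lower with PM. Germinal centre B cell markers were higher for 2 of 4 tested without PM and 0 of 3 with PM. Club and goblet cell markers were split, with 3 of 6 higher and 3 lower in each setting, and fibroblast markers were higher for 2 of 6 in each, with 3 lower with PM. Basal cell markers were higher for 1 of 3 tested without PM and 0 of 1 with PM. Erythroid precursor markers were called for 0 of 3 and 0 of 4 tested, and alveolar type 2 markers were lower for 1 of 6 and higher for 0 in each setting. With PM in the saline arm, 2 of 6 B cell, 0 of 6 T cell, 2 of 5 natural killer cell and 2 of 7 alveolar macrophage markers were higher. There 2 of 6 neutrophil and 2 of 6 alveolar type 2 markers were also higher, the latter with 1 lower. Of the remaining lists there, 1 of 6 club and goblet, 1 of 3 germinal centre, 1 of 4 erythroid, 0 of 6 fibroblast and 0 of 3 basal markers were higher. No marker of the B cell, plasma cell, T cell, monocyte or endothelial lists was at 0 in a whole group, and the part of these cells in the members' differences was not tested. Alveolar type 2 cell markers summed to 28832 to 61971 CPM over all libraries, in a tissue labelled as lung.

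In the authors' deposited tables, members numbering 40, 16 and 0 were called higher and 0 lower for the OVA effect without PM and for PM in saline and in OVA lungs, in that order. Of these, 40, 12 and 0 were also called here. Those tables called 28.7%, 19.8% and 15.6% of the genes to which they gave an adjusted p-value.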

How the data were processed

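The authors deposited raw read counts per gene in 3 tables of whole-number counts, which were joined by library name, and 12 library columns shared between tables were identical. Stranded polyA-selected libraries were read from single ends per the labels' protocols, and the submitters' processing notes name bcl2fastq and the build mm10. Neither the aligner nor the counting tool is given in the sources used here. Besides counts, the authors deposited log2 fold changes and adjusted p-values of their own, per the file headers, and these were read only for the last paragraph of the results. Of 24421 gene rows, 16 with names turned into dates (0.152% to 0.195% of counts) were left out. Names of 23361 genes matched GENCODE M21 (GRCm38), from which the longest transcript gave the length.

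Genes were kept by the expression filter of edgeR (minimum count 10, minimum total 15), scaled by TMM and tested pairwise with the quasi-likelihood F test of edgeR, with Benjamini-Hochberg adjustment over all genes tested and a threshold of 0.05. The difference between arms was an interaction term in a fit of all 4 groups. The SE was derived from the log2 fold change and the F statistic. CPM values use TMM library sizes, and log2 CPM a prior count of 2. The members, their 7 roles and the 9 pathway and 15 marker lists were chosen with earlier results of these data known. Full statistics are given for the 2 members with the smallest p of each role where more than 12 members passed, for each member that passed otherwise, and for the 4 smallest p where none did. Members described beyond these were chosen after their values were seen.

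Replicates of a group differed by a chi-square of at least 2.63 per degree of freedom, so that none were copies. Same-numbered libraries of 2 groups were checked for shared deviations. For OVA without PM their correlations lay between -0.08 and 0.57, with a mean of 0.17, against -0.02 for libraries of different numbers. In the other 5 pairwise comparisons the mean lay between -0.01 and 0.02, with the lowest pair below 0 in each. Some sharing in OVA without PM is therefore possible. The labels give no pairing beyond the number, so numbers were not taken as pairs in the main fits. Alternatives were DESeq2, its size factors in edgeR, library totals, no filter, a minimum of 1 CPM in 5 libraries, 1 fit of all 4 groups, the replicate number as a block, leaving out each library, leaving out libraries under 2 M counts, and an offset for the length and GC content of transcripts (splines with 4 degrees of freedom, genes with a mean of at least 10 counts). The steps were tested on simulated data with 200 changed genes. Fits ran in R 4.3.3 (DESeq2 1.42.0, limma 3.58.1, edgeR 4.0.16) and summaries in Python 3.11.15 (scipy 1.17.1, numpy 2.4.6, pandas 2.3.3).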

Additional observations from a re-analysis of the deposited data

Results flagged for a closer look

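In 60 groups of libraries tested for a single value far from the others, 5 were marked, and chance marks about 1 in 20 such groups. Replicate 5 of the OVA mice with PM stood far above the other libraries of its group for Lig1 (44.1 CPM), Tk1 (37.2 CPM) and Ccne1 (20.6 CPM), and it is a library of 1.13 M counts. Replicate 4 of the same group, with 0.302 M counts, stood at 0 CPM for Chaf1a. Replicate 3 of the saline mice without PM stood above the rest of its group for Pole (3.47 CPM).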

How the results depend on the processing

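The number of members called higher in OVA lungs lay between 40 and 41 over the alternatives without PM (11.2% to 16.9% of all genes higher in the same fits) and between 35 and 42 with single libraries left out (11.8% to 15.9%). With PM these ranges were 27 to 35 (10.4% to 15.5%) and 23 to 33 (9.67% to 13.99%). For OVA and PM against neither they were 36 to 40 (13.3% to 20.02%) and 36 to 41 (13.4% to 20.6%), and for PM alone against OVA alone, 31 to 37 (14.8% to 23.97%) and 27 to 36 members lower (16.3% to 23.97%). PM in the saline arm gave 8 to 16 members higher (3.64% to 9.21% of all genes), and between 1 and 19 with single libraries left out (1.704% to 12.9%), where the lowest counts of members lie near the share of all genes. PM in the OVA arm gave 1 member lower, Dnmt1, with library totals (12.8% of all genes lower) and without libraries under 2 M counts (13.3%). With single libraries left out it gave 0 to 1, where the 1 came without replicate 4 of the OVA mice without PM (13.8%). The main fit had 6.87% of all genes lower for PM in the OVA arm. Here the median over members was 0.02 without replicate 6 of the OVA mice with PM, against -0.06 with all libraries. The difference of the PM effects between arms gave 0 calls in every fit. Of the named members' values none reversed, and 12 of 108 lost their call for PM in the saline arm over alternatives other than leaving out a library, as did 73 of 132 with single libraries left out. The causes were not tested.

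With the replicate number as a block, 41, 16, 0, 35 and 40 members were higher (for OVA effects without PM, PM effects in saline and then in OVA lungs, OVA effects with PM, and both against neither). In the same order 16.3%, 9.21%, 0.519%, 12.5% and 20.02% of all genes were higher in those fits. For PM alone against OVA alone 31 members were lower, with a share of all genes within the range given above. The labels give no pairing beyond the number. Fold changes of members under a few CPM are limited by depth in the libraries under 2 M counts.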

Other observations

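Count ratios between members, chosen after their values were seen, are given as values. The ratio of the repressor E2f8 to the activator E2f1 had a median of 0.329 in OVA lungs with PM and 0.108 in saline lungs with PM, and of 0.459 in OVA lungs and 0.112 in saline lungs without PM. The ratio of Mcm10 to Mcm4 had a median of 0.127 in OVA lungs with PM and 0.0577 in saline lungs with PM, and of 0.141 in OVA lungs and 0.0277 in saline lungs without PM. The ratio of Ccne1 to Pcna had a median of 0.0846 in OVA lungs with PM and 0.0296 in saline lungs with PM, and of 0.0908 in OVA lungs and 0.0172 in saline lungs without PM.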
